A study of Homo sapiens with 4 samples.

Results

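The mitochondrial chaperones and proteases described here are 10 nuclear genes, HSPD1, HSPE1, HSPA9, DNAJA3, TRAP1, LONP1, CLPP, CLPX, YME1L1 and OMA1, out of 19775 genes measured. They were read by the 39 probe sets, of 54613, whose only gene symbol in the platform annotation is one of these names. The study compared 2 induced cultures of the human glioblastoma line LN-229, given doxycycline for 48 h so that they express WIF1, with 2 untreated control cultures. WIF1 is a secreted antagonist of WNT ligands. Each culture was hybridised to 1 Affymetrix 3' array, and the labels call the replicates biological. The labels do not say whether the control cells carry the inducible construct, nor whether the line is 1 clone. No culture had doxycycline without WIF1, so the drug and the induced protein cannot be told apart in any difference below.

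Mitochondria import most of their proteins unfolded. Chaperones of the matrix pull in and fold these proteins, and ATP-dependent proteases remove those that fail to fold or lack a partner. When proteins misfold there, or when mitochondrial and nuclear subunits are out of balance, cells are known to raise the messenger RNA of such chaperones and proteases, a response first described through HSPD1. Doxycycline belongs to the tetracyclines, which bind the bacterial ribosome and are known to slow the mitochondrial ribosome as well.

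All values are log2 intensities, so a difference of 1 is a doubling of signal, and each difference is induced minus control with n = 2 arrays in each group. The array medians were 6.15 and 6.15 in induced cultures and 6.16 and 6.19 in control cultures, and the 2 arrays per group limited the precision. Of 9 glioblastoma and astrocyte markers, 8 were at least as bright as the median probe set (6.16), and GFAP lay below it at 5.66. By their brightest probe set 12722 of all 19775 genes reached this median, so reaching it does not identify a cell type. Of the markers of other cell types, 0 of 3 epithelial ones reached it, against 1 of 2 for oligodendrocytes, 2 of 3 for leukocytes, 2 of 3 for endothelium and 3 of 3 for neurons. PTPRC, the defining leukocyte marker, was at 3.79, and the brightest of these markers was SYT1, a synaptic vesicle protein, at 9.19 with a difference of 0.35 (adjusted p = 0.452). The 9 glioblastoma and astrocyte markers had a median difference of -0.057 beside -0.003 over all genes, with 2 higher and 7 lower by sign. FABP7, at -0.19, had the smallest p of the 9 (adjusted p = 0.437). The part of these markers in the results below was not tested. The 1 probe set for WIF1 lay near the floor, at 2.93 and 3.03 in induced cultures and 2.98 and 2.90 in control cultures, so it did not check the labels; whether it lies in the expressed sequence is not known here.

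None of the 10 genes passed the test for a difference between induced and control cultures. Limma called 0 of the 39 probe sets at an adjusted p under 0.05, and it called 0 of all 54613 (0%). At an unadjusted p under 0.05 stood 2 of the 10 genes, where 11.2% of all genes did so. YME1L1 was the higher one, beside 6.48% of all genes, and TRAP1 the lower one, beside 4.73%. Of the 39 probe sets the same 2 stood there, against 10.0% of all probe sets. A gene is represented here by its brightest probe set. Both induced arrays lay on one side of both control arrays for 5 of the 10 genes, against 43.9% of all genes. Of these 3 were higher, beside 21.4% of all genes, and 2 were lower, beside 22.4%. The difference was larger than the larger gap between replicates for 4 genes, against 31.6% of all genes. These counts lie close to what the shares of all genes give for 10 genes. By sign 8 genes were higher and 2 lower, where 9640 of all 19775 genes were higher and 10131 lower. The median difference was 0.026 beside -0.003 over all genes. Among the 8, the sign of HSPE1, HSPA9, DNAJA3, LONP1 and OMA1 turned when 1 array was left out. Across the 10 genes the differences ran from -0.10 to 0.17. The 95% intervals of their representative probe sets reached no lower than -0.19 and no higher than 0.37, a fold of 0.87 and 1.29. Over the 20 probe sets at least as bright as the median one they reached -0.55 and 0.37, a fold of 0.68 and 1.29. Over all 39 they reached -0.97 and 0.47, a fold of 0.51 and 1.38.

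**Figure D1:**
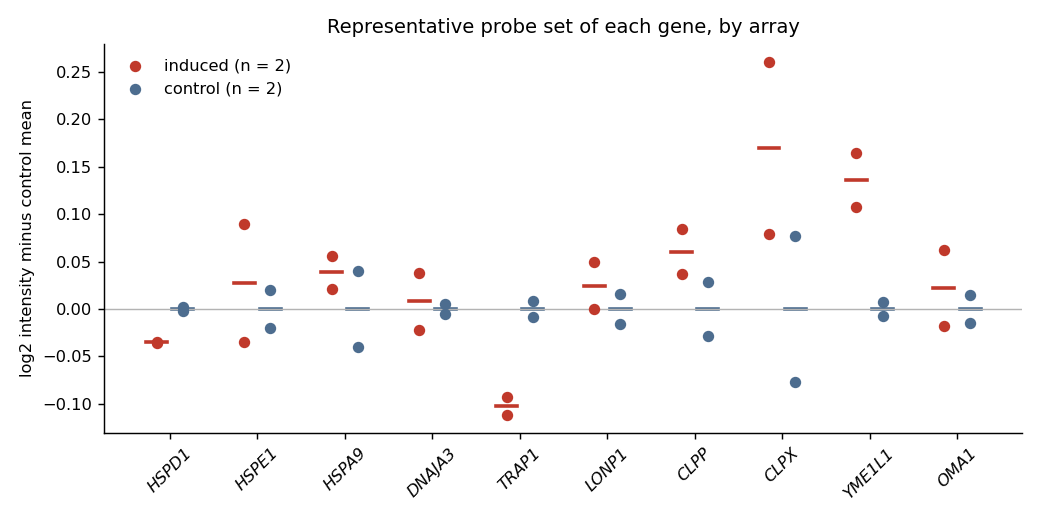
Log2 intensity of each gene's representative probe set minus the mean of its 2 control arrays, 1 point per array and 1 bar per group mean, for induced (left of each pair) and control cultures (right). The points of HSPD1 and TRAP1 (both lower) and YME1L1 (higher) stand apart by more than the gaps between replicates. The 2 groups overlap for HSPE1, HSPA9, DNAJA3, LONP1 and OMA1.

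HSPD1 encodes HSP60, which forms the folding chamber of the matrix, and HSPE1 encodes HSP10, its lid. The HSPD1 probe set 200807_s_at read 13.61 and 13.61 in induced cultures and 13.65 and 13.64 in control cultures, a difference of -0.04 (SE 0.023, adjusted p = 0.626). Both induced arrays lay below both controls, by 0.0324 at the nearest. A second bright probe set, 200806_s_at, read 13.27 and 13.12 in induced cultures and 13.33 and 13.26 in control cultures, and its groups overlapped. Its difference was -0.10 (SE 0.052, adjusted p = 0.553). Of the 3 others, 243372_at gave -0.03, while 243845_at and 241716_at were dimmer than the median probe set and gave 0.01 and -0.43. The value of -0.43 came from 1 array, since 241716_at read 4.43 and 3.75 in induced cultures against 4.41 and 4.62 in control cultures (SE 0.22, adjusted p = 0.554). HSPE1 read 11.60 and 11.72 in induced cultures and 11.65 and 11.61 in control cultures, which overlapped, with a difference of 0.03 (SE 0.048, adjusted p = 0.872). RefSeq also lists a read-through locus, HSPE1-MOB4, that starts at the same base as HSPE1, and whether the HSPE1 probe set reads it is not known here.

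HSPD1 and HSPE1 lie head to head on chromosome 2, and their promoter is shown because one stretch of DNA serves both directions. In RefSeq (GRCh38.p14) the first listed start of HSPD1 and that of HSPE1 are 105 bases apart, so the windows of 300 bases around them, 250 before and 50 after the start, share 204 bases. RefSeq gives HSPD1 another start, 539 bases from that of HSPE1. The HSPE1 window is chr2:197500129-197500428 on the + strand, with the bases shared with the HSPD1 window in capitals. The second HSPD1 window is chr2:197499791-197500090 on the - strand, and its capitals mark GAANNTTC, a core letter pattern of heat shock elements.
HSPE1: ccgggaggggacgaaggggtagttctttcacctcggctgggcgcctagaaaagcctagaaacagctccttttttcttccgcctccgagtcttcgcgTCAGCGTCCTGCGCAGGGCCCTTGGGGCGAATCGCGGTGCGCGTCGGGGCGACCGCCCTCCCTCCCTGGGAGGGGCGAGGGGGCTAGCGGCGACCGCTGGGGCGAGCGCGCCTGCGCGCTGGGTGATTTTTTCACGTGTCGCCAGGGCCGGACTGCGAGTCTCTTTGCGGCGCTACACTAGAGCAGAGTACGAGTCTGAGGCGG
HSPD1, other start: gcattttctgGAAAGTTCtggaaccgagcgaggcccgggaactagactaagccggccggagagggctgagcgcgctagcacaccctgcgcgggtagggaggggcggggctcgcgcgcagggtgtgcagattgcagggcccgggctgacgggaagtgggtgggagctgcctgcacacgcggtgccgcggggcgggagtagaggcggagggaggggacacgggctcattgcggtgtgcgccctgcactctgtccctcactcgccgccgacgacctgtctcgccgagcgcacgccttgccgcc
With this shared promoter, the differences of the pair were -0.04 for HSPD1 and 0.03 for HSPE1, with 95% intervals of -0.09 to 0.02 and -0.09 to 0.14 that overlap.

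The HSP70 system of the matrix is formed by HSPA9 (mortalin), which pulls imported chains inward and helps them fold, and DNAJA3, a J-domain protein that drives its ATP cycle. The representative HSPA9 probe set, 200691_s_at, read 11.50 and 11.53 in induced cultures and 11.52 and 11.44 in control cultures, with overlap. Its difference was 0.04 (SE 0.040, adjusted p = 0.759). All 4 HSPA9 probe sets had a positive sign with every array in, but without the second control array 200691_s_at turned to -0.002 and 200692_s_at was at 0.017. The other bright ones gave 0.11 (200692_s_at, SE 0.065, adjusted p = 0.589) and 0.09 (200690_at, SE 0.052, adjusted p = 0.583), and the dim 232200_at gave 0.04. For 200692_s_at the arrays read 10.47 and 10.51 in induced cultures and 10.47 and 10.29 in control cultures, so the groups were apart by only 0.0007. DNAJA3 read 11.19 and 11.13 in induced cultures and 11.15 and 11.14 in control cultures, a difference of 0.01 (SE 0.038, adjusted p = 0.961). Its other probe set gave 0.02, and the groups overlapped in both. The interval for DNAJA3, -0.08 to 0.10, is among the narrower ones and leaves room for a fold of 0.94 to 1.07.

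TRAP1 encodes the HSP90 of mitochondria. Its signal was lower in both induced arrays by more than the gap between replicates, as was that of HSPD1 by a smaller amount. TRAP1 read 10.36 and 10.38 in induced cultures and 10.47 and 10.48 in control cultures, so the groups were apart by 0.0839 while replicates differed by at most 0.02. The difference was -0.10 (SE 0.038, 95% interval -0.19 to -0.01), with an adjusted p of 0.482, so it did not pass the test. Its other probe set, 239622_at, was near the floor, at 3.29 and 3.18 in induced cultures against 3.34 and 3.29 in control cultures, and gave -0.08 with overlap. The TRAP1 promoter is shown because it holds the full cyclic AMP response element TGACGTCA, in capitals below, which ATF and CREB factors can bind. Its window is chr16:3717475-3717774 on the - strand (GRCh38.p14).
TRAP1: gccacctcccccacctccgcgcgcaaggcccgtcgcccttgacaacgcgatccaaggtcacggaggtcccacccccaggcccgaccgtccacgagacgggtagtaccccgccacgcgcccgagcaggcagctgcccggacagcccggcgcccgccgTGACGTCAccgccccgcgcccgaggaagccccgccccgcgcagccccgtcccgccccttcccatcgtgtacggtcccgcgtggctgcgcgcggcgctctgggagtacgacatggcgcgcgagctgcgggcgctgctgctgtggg
This pattern is in 1.85% of the 35116 RefSeq promoter windows, and TRAP1 was the 1 gene with it among the 8 of the 10 genes matched there.

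The matrix proteases are LONP1, an ATP-dependent protease that degrades damaged proteins, and CLPP, a peptidase fed by the unfoldase CLPX. LONP1 read 9.48 and 9.43 in induced cultures and 9.45 and 9.41 in control cultures, with overlap and a difference of 0.02 (SE 0.047, adjusted p = 0.885). CLPP read 9.94 and 9.89 in induced cultures and 9.88 and 9.82 in control cultures, which were apart by 0.0087. Its difference was 0.06 (SE 0.046, adjusted p = 0.668). CLPX had the widest interval of the representative probe sets. It read 8.98 and 9.16 in induced cultures and 8.98 and 8.82 in control cultures, where replicates differed by up to 0.18 and the groups were apart by only 0.0013. The CLPX difference was 0.17 (SE 0.082, 95% interval -0.03 to 0.37, adjusted p = 0.534). It was 0.079 without the second induced array and 0.092 without the second control array, against 0.261 and 0.247 without the first of each. The other CLPX probe set, 223507_at, gave 0.02 with overlap, so the 2 readings of this gene do not settle on one size. One of the LONP1 windows holds the palindrome bound by NRF1, a regulator of nuclear genes for mitochondrial proteins, which is in 1.24% of all windows. Of the other patterns, all searched on both strands, GAANNTTC is in 6.77% of windows and, among these genes, in HSPD1; CCAAT is in 34.6% and in DNAJA3 and CLPX. TGATGNAA, the core of the composite site of C/EBP and ATF factors, is in 3.62% of windows and in 0 of the 10 windows of the 8 matched genes. CLPP and YME1L1 were not matched. The patterns searched do not overlap one another in the windows printed.

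**Figure D2:**
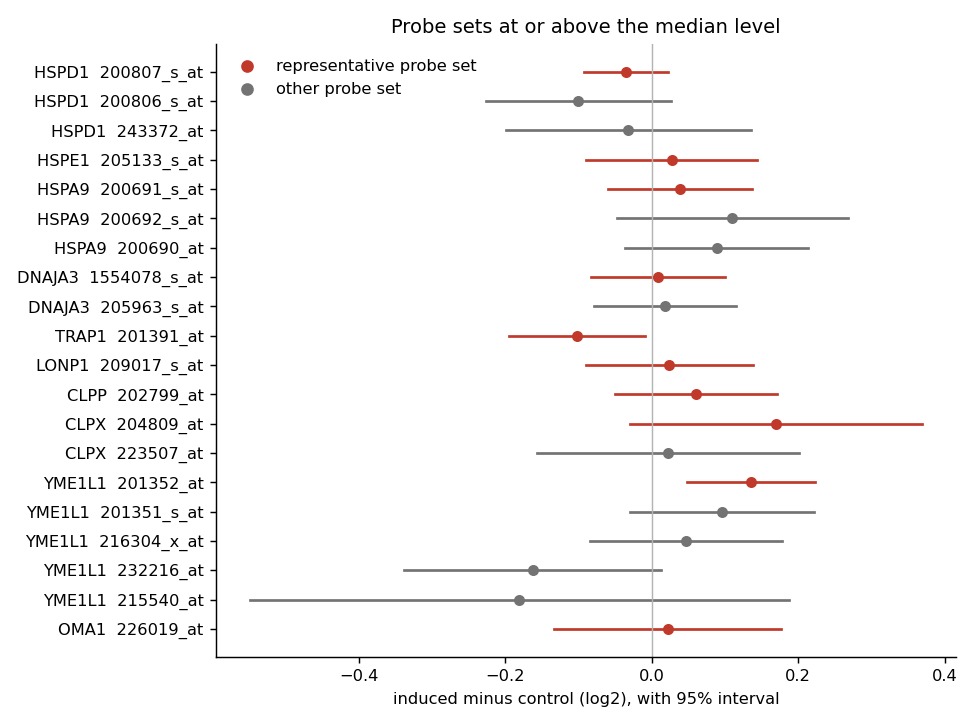
Difference (induced minus control, log2) with its 95% interval from limma for the 20 probe sets of the 10 genes that were at least as bright as the median probe set; representative probe sets in red, others in grey. The interval lies wholly below 0 for TRAP1 201391_at and wholly above 0 for YME1L1 201352_at, and neither passed after adjustment.

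The inner membrane proteases are YME1L1, an AAA metalloprotease that faces the intermembrane space, and OMA1, a metalloprotease activated by stress. Both cut OPA1, a fusion protein of that membrane, and OMA1 also cuts DELE1, which relays mitochondrial stress to the integrated stress response. YME1L1 had the smallest p of the 10 genes. Its probe set 201352_at read 11.47 and 11.53 in induced cultures and 11.37 and 11.36 in control cultures, and the groups were apart by 0.1001, more than either gap between replicates. The difference was 0.14, or 1.10-fold (SE 0.036, 95% interval 0.05 to 0.22, adjusted p = 0.472). The other bright YME1L1 probe sets gave 0.10 (201351_s_at, SE 0.052, adjusted p = 0.563) and 0.05 (216304_x_at, SE 0.054, adjusted p = 0.786). 201351_s_at read 11.24 and 11.27 in induced cultures and 11.23 and 11.09 in control cultures, and 216304_x_at read 11.09 and 11.16 in induced cultures and 11.14 and 11.01 in control cultures. Thus all 3 had a positive sign with every array in, and the groups overlapped in 1 of them. Without the second control array 216304_x_at turned to -0.018 and 201351_s_at was at 0.028.

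The annotation ties 17 further probe sets to YME1L1, and they do not follow the 3 bright ones. Their means ran from 2.58 to 6.93, while the bright ones lay between 11.10 and 11.43, and 15 of the 17 were dimmer than the median probe set. By sign 9 were higher and 8 lower, with a median of 0.007 and a range from -0.18 to 0.14. The brightest of the 17, 232216_at, read 6.84 and 6.85 in induced cultures and 6.97 and 7.05 in control cultures, a difference of -0.16 (SE 0.073, adjusted p = 0.515), opposite in sign to the bright ones. The 17 are part of the 39 counted above, and neither of the 2 probe sets at an unadjusted p under 0.05 is among them. Of the 20 YME1L1 probe sets, 1 has a RefSeq transcript of this gene as its recorded accession, 11 have another accession and 8 have none recorded. The bright 201351_s_at and 216304_x_at are among those 11, so the accession does not part the bright from the dim. Whether the dim ones read YME1L1 at all could not be checked from the tables used here, so the gene is described by the bright ones.

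OMA1 had 1 probe set of its own, 226019_at, with 7.81 and 7.73 in induced cultures and 7.74 and 7.76 in control cultures. The groups overlapped, and the difference was 0.02 (SE 0.064, adjusted p = 0.931). A second probe set, 226020_s_at, is annotated with both OMA1 and DAB1 and was therefore left out of the counts. It read 7.82 and 7.70 in induced cultures and 7.97 and 7.98 in control cultures, a difference of -0.22 (SE 0.067, 95% interval -0.38 to -0.05, adjusted p = 0.472). RefSeq lists DAB1 as an older name of OMA1 besides being the name of another gene, so which transcript this probe set reads is not known here.

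**Figure D3:**
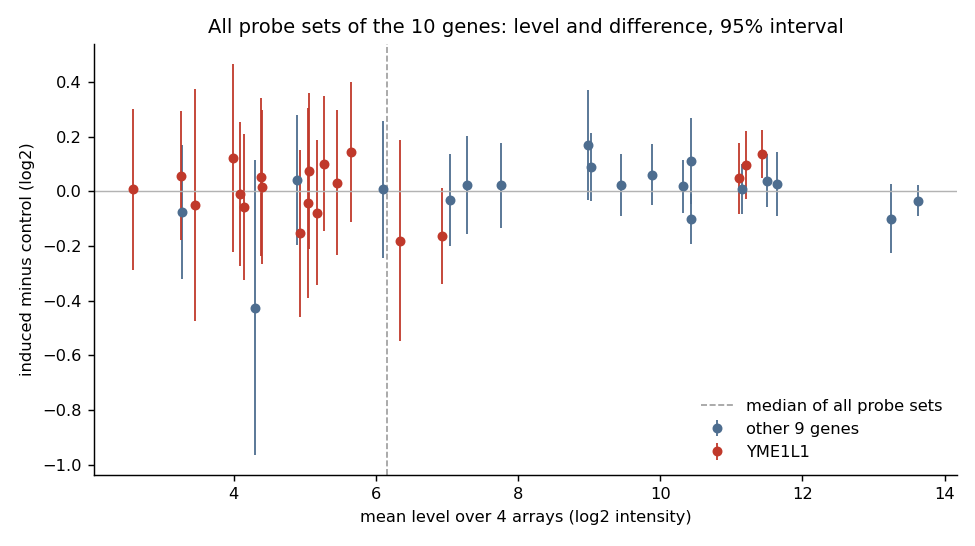
Mean level over the 4 arrays (log2 intensity) against the difference (induced minus control, log2, bars for the 95% interval) for all 39 probe sets, with YME1L1 in red. The 3 bright YME1L1 probe sets lie at 11.10 to 11.43, all above 0, and its 17 dimmer ones scatter from -0.18 to 0.14.

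Related genes of mitochondria, and chaperones of the cytosol and endoplasmic reticulum, were read through 7 lists, with 98 of 106 genes measured. Of these 98 genes 0 passed at an adjusted p under 0.05. The counts below are at an unadjusted p under 0.05, which 6.48% of all genes reached as higher and 4.73% as lower. Among 15 other mitochondrial proteases and their scaffolds 0 were higher and 1 lower, with a median of -0.008. That one was PITRM1, which degrades presequences, at -0.13 (adjusted p = 0.477), and IMMP2L and IMMP1L, inner membrane peptidases, were at 0.10 each. Among 8 other mitochondrial chaperones and cochaperones 1 was higher and 1 lower (median 0.041). GRPEL2, a nucleotide exchange factor of HSPA9, differed by 0.27 (SE 0.092, adjusted p = 0.472), CLPB, a disaggregase of the intermembrane space, by -0.18 and HSCB, a J-protein of iron-sulphur cluster assembly, by 0.19. Leaving out 1 array gave 0.148 to 0.398 for GRPEL2, lowest without the second induced array, -0.237 to -0.114 for CLPB, nearest 0 without the second control array, and 0.068 to 0.312 for HSCB, lowest without the second induced array. Among 20 import subunits of 22 listed 1 was higher and 0 lower (median 0.017), TIMM21 at 0.19, with SAMM50 at -0.07 and TIMM17A at 0.08.

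Of 14 genes of mitochondrial stress signalling 4 were higher and 0 lower, with a median of 0.030. The transcription factor DDIT3 (CHOP) read 9.53 and 9.59 in induced cultures and 9.04 and 9.11 in control cultures, a difference of 0.48 (SE 0.052, adjusted p = 0.192). TRIB3, a pseudokinase downstream of it, differed by 0.37 (adjusted p = 0.314) and CEBPB, its dimer partner, by 0.17 (adjusted p = 0.472). The fourth was ATF4, at 0.10, named after its value was seen. DDIT3, TRIB3 and CEBPB are the ones of smallest p. The whole list ran from -0.17 to 0.48, with 7 higher and 7 lower by sign. Whether the differences of the 4 genes are tied to mitochondria or to another stress was not tested.

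Among 17 cytosolic chaperones of 22 listed 1 was higher and 3 lower (median 0.003). HSPA8, HSPA1A, HSPA1B, AHSA1 and TCP1 were listed but had no probe set of their own, so these values leave them out. HSPH1, a cochaperone of cytosolic HSP70, was at 0.20, the chaperonin subunit CCT3 at -0.08 and HSP90AB1 at -0.09. Among 15 chaperones of the endoplasmic reticulum 0 were higher and 3 lower (median -0.036), namely HSP90B1 (GRP94) at -0.22 (-0.126 without the second induced array), the disulphide isomerase PDIA6 at -0.11 and the J-protein DNAJB11 at -0.09. Of 9 genes of mitochondrial fusion, fission and removal, of 10 listed, 0 were higher and 0 lower (median -0.028), and BNIP3, a mitophagy receptor, was at 0.12, PINK1 at -0.09 and MFF at 0.02.

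**Figure D4:**
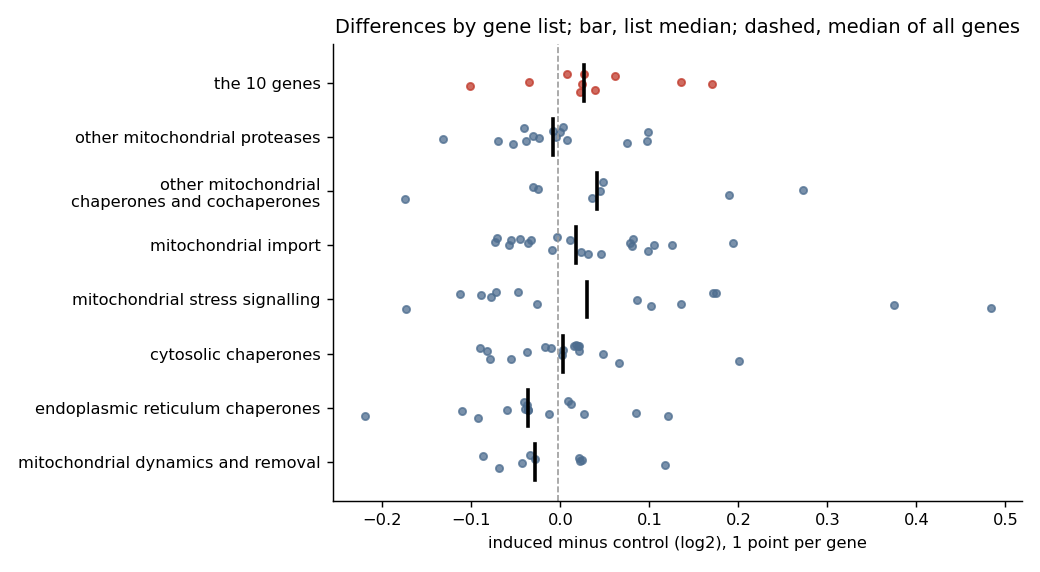
Difference (induced minus control, log2) of each gene's representative probe set, 1 point per gene, for the 10 genes (red) and the 7 related lists; black bars are list medians and the dashed line is the median of all genes, -0.003. The list medians lie between -0.036 and 0.041, and the points farthest from 0 are DDIT3 and TRIB3 in the list of mitochondrial stress signalling.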

How the data were processed

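RNA of 4 LN-229 cultures was amplified to biotin-labelled cRNA, per the labels' protocols. The deposited values are log2 intensities per probe set, made by the authors with RMA (affy package), per the submitters' processing notes; the sources used here give no version. RMA equalises the intensity distributions of arrays, so a change shared by most genes would not be seen, and it compresses differences near the floor. Of 54675 probe sets 62 controls were left out. Names came from the platform annotation, which gives 41091 of the others 1 symbol, 1801 several and 11721 none. Groups were taken from the titles.

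Differences were fitted over all 54613 probe sets with limma 3.58.1 in R 4.3.3 (lmFit, eBayes with an intensity trend, 2-sided, Benjamini-Hochberg, threshold 0.05). The test had 6.27 degrees of freedom, 4.27 of them prior. It was tested on simulated data. SE and 95% intervals are from this fit. An exact permutation test of 2 against 2 arrays cannot go below p = 0.333.

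All probe sets of the 10 genes are accounted for; from each of 7 lists up to 3 genes of smallest p, at least as bright as the median probe set, are named. ATF4, PTPRC, the other markers and the genes in the closing section were named after their values were seen. The 10 genes, lists and tests were chosen with earlier results of these data known. Promoter windows are RefSeq's. Protein features planned for the 10 genes were not analysed here. Alternatives were a replicate block, eBayes without trend or robust, a filter on dim probe sets, centring, cyclic loess, averaged probe sets and leaving out each array.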

Additional observations from a re-analysis of the deposited data

How the results depend on the processing

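No bright probe set of the 10 genes passed under any of the 10 alternatives to the fit, where the adjusted p ran from 0.332 to 1. Over the 20 bright probe sets and the 10 alternatives 190 of 200 recomputed differences kept their sign, but many of these could not change. The replicate block, the other eBayes settings and the filter on dim probe sets leave each difference as it was. All turns of sign came from cyclic loess (1) or from leaving out 1 array. The 19 dim ones were not recomputed singly. The 2 arrays per group bound what can be seen. Centring subtracts each array's median and so adds the same amount to every difference. The cause of the other moves below was not tested.

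Replicate numbers were shared between groups, but deviations of same-numbered arrays correlated at only 0.0564, and the labels name no shared batch. With the number as a replicate block no call changed, and the adjusted p of YME1L1 was 0.587 and that of TRAP1 0.587. The count of all called probe sets, 0 of 54613 with 5469 at an unadjusted p under 0.05, was 2 with robust eBayes, 5 after centring and 11 after cyclic loess, none of them among the 10 genes. With dim probe sets filtered out 27307 were left, and 3468 of these had an unadjusted p under 0.05, against 5469 of all 54613. Leaving out 1 array gave 2138 to 6208. Of the 39 probe sets, 2 had an unadjusted p under 0.05, against 0 without the trend, 1 after centring, 4 after cyclic loess and 0 to 5 without 1 array (0 without control array 2 or induced array 2, and 5 without induced array 1).

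The median of the 10 genes, 0.026, was 0.050 after centring, beside the same shift, from -0.003 to 0.022, over all genes. Without 1 array the median of the 10 genes was 0.008 to 0.044. After centring the list medians were 0.016 for other proteases, 0.066 for other chaperones, 0.041 for import, 0.055 for stress signalling, 0.028 for cytosolic and -0.012 for endoplasmic reticulum chaperones and -0.003 for fusion, fission and removal. After cyclic loess they were -0.022 for other proteases, 0.002 for import, -0.012 for cytosolic chaperones and -0.053 for the endoplasmic reticulum. With probe sets averaged per gene they were -0.031 for other proteases, -0.004 for import, -0.037 for stress signalling and -0.037 for cytosolic chaperones. Without 1 array they ran from -0.017 to -0.003 for other proteases, 0.010 to 0.056 for other chaperones, 0.012 to 0.036 for import, 0.021 to 0.085 for stress signalling, -0.011 to 0.017 for cytosolic chaperones, -0.026 to -0.006 for the endoplasmic reticulum and -2.8e-04 to 0.032 for fusion, fission and removal.

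DNAJA3 turned to -0.009 and HSP90AA1 to -0.014 after cyclic loess. Without 1 array the sign turned for HSPE1 (-0.035 to 0.089), HSPA9 200691_s_at (-0.002 to 0.079), DNAJA3 1554078_s_at (-0.022 to 0.038) and 205963_s_at (-0.003 to 0.040), LONP1 (-3.3e-04 to 0.049), CLPX 223507_at (-0.038 to 0.083), YME1L1 216304_x_at (-0.018 to 0.112) and 215540_at (-0.411 to 0.049), OMA1 (-0.018 to 0.062), PINK1 (-0.215 to 0.042), MFF (-2.8e-04 to 0.049), HSP90AA1 (-0.012 to 0.053) and WIF1 (-0.007 to 0.092). It did not turn for YME1L1 201352_at (0.107 to 0.165) or TRAP1 201391_at (-0.112 to -0.093). Without 1 array, moves of over 1.5 times with no turn of sign were given above for CLPX, GRPEL2, CLPB, HSCB and HSP90B1. Other such ranges were -0.174 to -0.027 for HSPD1 200806_s_at, -0.046 to -0.018 for HSPD1 243372_at and 0.017 to 0.203 for HSPA9 200692_s_at. They were 0.059 to 0.118 for HSPA9 200690_at, 0.028 to 0.164 for YME1L1 201351_s_at and 0.032 to 0.089 for CLPP. Related genes gave 0.035 to 0.124 for TIMM17A, 0.120 to 0.282 for HSPH1, 0.072 to 0.161 for BNIP3 and -0.122 to -0.059 for HSP90AB1. Some values also moved under other settings, such as HSPD1 200807_s_at, from -0.035 to -0.010 after centring and -0.070 after cyclic loess.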

Other observations

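The HSP90 chaperones of other compartments, relatives of TRAP1, were named here after their values were seen, and no direction of the family was tested. HSP90AB1 of the cytosol read 13.06 and 13.03 in induced cultures and 13.17 and 13.10 in control cultures, a difference of -0.09 (SE 0.033, adjusted p = 0.477), and all 3 of its probe sets were lower by sign, from -0.20 to -0.09. HSP90B1 of the endoplasmic reticulum read 11.60 and 11.41 in induced cultures and 11.73 and 11.72 in control cultures, a difference of -0.22 (SE 0.062, adjusted p = 0.472), while its other probe set gave -0.01. Without the second induced array that difference of 216449_x_at was -0.126. HSP90AA1, the inducible cytosolic form, was split, with 2 probe sets higher and 2 lower, from -0.09 to 0.03. None of these passed the test.

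The nucleotide exchange factors of HSPA9 gave opposite signs. GRPEL2 read 10.01 and 10.26 in induced cultures and 9.93 and 9.78 in control cultures, a difference of 0.27 (0.148 without the second induced array), but its other probe set gave -0.16 with overlapping groups. Both GRPEL1 probe sets were lower by sign, at -0.03 and -0.04. The difference between GRPEL2 and GRPEL1 was not tested.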
